A study of Homo sapiens with 3 samples.

Results

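SNORD2, SNORA81, SNORA63 and SNORA4 are 4 small nucleolar RNAs (snoRNAs) that lie in introns of the same gene, EIF4A2, which encodes an RNA helicase of translation initiation. They were picked by name, SNORD2 also by its older names R39B and snR39B, SNORA81 by HBI-61, SNORA63 by E3 and SNORA4 by ACA4, and they are 4 of the 259 snoRNAs with reads in the series. SNORD2 belongs to the box C/D class and the other 3 to the box H/ACA class. The series, whose title names the box C/D snoRNA U3 as a source of miRNAs, holds 3 small RNA libraries of HEK293 cells, an established human embryonic kidney line, grown in DMEM with serum and antibiotics and with no treatment named in the labels. They form 1 group, so each comparison was made between snoRNAs within a library. Libraries 1, 2 and 3 held 19989, 11958 and 19092 snoRNA counts, and the labels do not say whether they came from separate cultures, so a p-value here reflects only how much these libraries vary, and that may be technical variation.

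Box C/D snoRNAs are short guides of 2′-O-methylation, among them SNORD2, a guide for 28S rRNA, held in a complex by the conserved C and D boxes near their ends and by the internal C′ and D′ boxes. Box H/ACA snoRNAs guide pseudouridylation and fold into a pair of hairpins, with the H box in the hinge between them and the ACA box just before the 3′ end. Most human snoRNAs of both classes are cut out of the introns of host transcripts after splicing and trimmed from both sides until the bound proteins stop the nucleases. Both classes can also give shorter, stable pieces, some of which have been described as miRNAs. Since splicing of 1 EIF4A2 transcript can free all 4 snoRNAs, their levels can be set side by side for a common host.

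The 4 snoRNA sequences are shown because the results turn on where the reads start and end. The letters are those of a GENCODE 29 transcript of EIF4A2 that keeps these introns (GRCh38, plus strand, written 5′ to 3′ as DNA), and position 1 is the first base. Capitals mark a piece described below for each snoRNA. The pieces were chosen after the reads had been seen, so their shared place in the 3′ part is not a result. In libraries 1, 2 and 3 the SNORA63 piece had 0, 0 and 5 reads and the SNORA4 piece 0, 0 and 2.
SNORD2: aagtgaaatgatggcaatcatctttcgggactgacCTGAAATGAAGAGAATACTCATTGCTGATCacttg
SNORA81: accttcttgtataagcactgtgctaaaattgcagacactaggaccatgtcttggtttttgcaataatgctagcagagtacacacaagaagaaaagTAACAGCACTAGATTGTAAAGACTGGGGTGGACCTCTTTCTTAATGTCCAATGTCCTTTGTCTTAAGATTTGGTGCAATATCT
SNORA63: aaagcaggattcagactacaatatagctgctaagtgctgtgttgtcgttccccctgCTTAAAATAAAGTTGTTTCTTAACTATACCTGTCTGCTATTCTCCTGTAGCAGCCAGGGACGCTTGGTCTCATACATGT
SNORA4: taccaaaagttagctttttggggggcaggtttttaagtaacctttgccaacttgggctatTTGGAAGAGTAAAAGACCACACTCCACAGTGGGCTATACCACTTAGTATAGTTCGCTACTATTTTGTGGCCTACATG

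EIF4A2 lies on chromosome 3 (GRCh38, 186783205 to 186789900, plus strand), and its principal coding transcript has 10 introns. SNORD2 is 70 nt long and lies in intron 3 (chr3:186784796-186784865), 96 nt before the next exon. SNORA81 is 178 nt long and lies in intron 7 (chr3:186786675-186786852), 274 nt before the next exon. SNORA63 (135 nt, chr3:186787299-186787433) and SNORA4 (137 nt, chr3:186787613-186787749) lie in introns 8 and 9, 61 and 53 nt before the next exon. The positions are RefSeq's, or GENCODE's for SNORA81, chosen because their lengths equal the highest position that the reads of each snoRNA reached. That these were the sequences the reads were matched to is inferred from those lengths only.

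The box motifs were looked for by letters on the RNA strand. In SNORD2 the C box core TGATG stands at positions 9 to 13, and CTGA, the core of a D box, stands at 31 to 34, 36 to 39 and 60 to 63. Among the 221 annotated snoRNAs within 10 nt of its length, 77.8% hold TGATG and 92.3% hold CTGA. In SNORA63 and SNORA4 the last ACA stands at 130 to 132 and 133 to 135, which is 3 and 2 nt before the 3′ end. The H box pattern ANANNA was looked for only in the middle, with a start at 35% to 65% of the length. There it starts at 60 and 61 in SNORA63, at 66, 71 and 74 in SNORA4, and at 7 places between 74 and 103 in SNORA81. In SNORA81 the last ACA stands at 98 to 100, inside the last H box match. These are short patterns, and ANANNA alone occurs in the same middle window in 85.9% of the 333 annotated snoRNAs near the length of SNORA63. Among annotated snoRNAs of other names, none had at least 90% identical bases to any of the 4. The closest were 81.4% for SNORD2, 83.7% for SNORA81, 89.6% for SNORA63 and 85.4% for SNORA4. Sequences that held the whole snoRNA, or lay wholly within it, were left out of this search, so exact copies were not looked for.

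SNORD2 was one of the most abundant snoRNAs in these libraries, and the box H/ACA snoRNAs of the same host were far below it. SNORD2 had 663, 671 and 522 reads in libraries 1, 2 and 3, which were 3.32%, 5.61% and 2.73% of the snoRNA counts (exact 95% binomial intervals 3.07% to 3.57%, 5.21% to 6.04% and 2.51% to 2.98%). Its mean share of 3.89% ± 1.52 (SD, n = 3) ranked 2 of 147 box C/D snoRNAs, whose median share was 0.332%. The 3 intervals do not overlap, with library 2 highest and library 3 lowest. The labels name no molecular identifiers, so reads are not independent molecules and all intervals here cover counting error only.

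SNORA81, SNORA63 and SNORA4 each had at most 47 reads in a library. SNORA81 had 22, 15 and 47 reads (0.110%, 0.125% and 0.246% of the counts; mean 0.161% ± 0.0745, SD, n = 3). SNORA4 had 37, 8 and 30 reads (0.185%, 0.0669% and 0.157%; mean 0.136% ± 0.0618, SD, n = 3). SNORA63 had 2, 6 and 26 reads (0.0100%, 0.0502% and 0.136%; mean 0.0655% ± 0.0645, SD, n = 3). They ranked 12, 14 and 29 of 92 box H/ACA snoRNAs by mean share, all above that class's median of 0.0349%.

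The order among these 3 was not stable. Per length, SNORA81 exceeded SNORA63 8.34-, 1.90- and 1.37-fold in libraries 1, 2 and 3, but set against SNORA4 it was at 0.458, 1.44 and 1.21 times the reads per nucleotide. SNORA63 was below SNORA4 in 3 of 3 libraries, at 0.0549, 0.761 and 0.880 times its reads per nucleotide. SNORA63 varied most, with a share 13.6 times as high in library 3 as in library 1, where it had 2 reads. Without library 3 its mean share was 0.0301%. SNORA81 and SNORA4, by contrast, changed places between libraries.

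**Figure D1:**
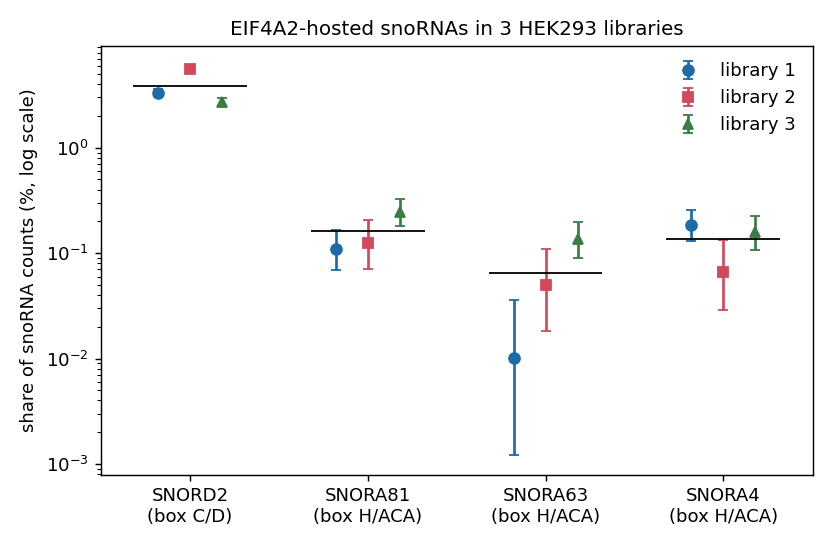
Share of snoRNA counts (percent, log axis) of the 4 EIF4A2-hosted snoRNAs in each of the 3 HEK293 libraries, with exact 95% binomial intervals as bars and the mean over libraries as a line. SNORD2 lies between 2.73% and 5.61%, and no value of SNORA81, SNORA63 or SNORA4 exceeds 0.246%.

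Within each library the distance between SNORD2 and its host's box H/ACA snoRNAs was large. In reads per 100 nt, SNORD2 reached 947, 959 and 746, against 12.4, 8.43 and 26.4 for SNORA81, 1.48, 4.44 and 19.3 for SNORA63, and 27.01, 5.84 and 21.9 for SNORA4. In reads not divided by length, SNORD2 exceeded SNORA81 24.6-fold by the mean log2 ratio (4.62 ± 1.04, SD, n = 3), SNORA4 29.7-fold (4.89 ± 1.30) and SNORA63 90.6-fold (6.50 ± 2.04). Per nucleotide these ratios were 62.7-, 58.1- and 175-fold. Dividing by length raised them, since SNORD2 is the shortest of the 4. Most SNORD2 and SNORA4 reads spanned nearly the whole snoRNA, so a read count need not rise with length. Whether it does was not tested, here or for the ratios per 100 nt of other hosts below. Against the sum of the 3, which had 61, 29 and 103 reads, SNORD2 was 10.8-fold higher (log2 3.44 ± 1.10).

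All 4 ratios were above 1 in 3 of 3 libraries, and p was 0.25 for each in a two-sided exact permutation test that flips signs, also after Benjamini-Hochberg adjustment over the 4. With 3 libraries no smaller p is possible. The ratio to SNORA63 leaned on single libraries, with a log2 value of 5.57 without library 1 and 7.59 without library 3. The ratio to SNORA4 was 4.14 on the log2 scale without library 2, which held 8 SNORA4 reads. The longest reads of any snoRNA had 238, 181 and 193 nt, so that SNORA81 with 178 nt lay near the upper end of the lengths read in libraries 2 and 3, and the part of read length in these ratios was not tested.

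The same class ratio was taken in 3 other protein-coding hosts with snoRNAs of both classes in their introns: RPL21, a ribosomal protein gene with SNORD102 and SNORA27; NCL, which encodes nucleolin, with SNORD20, SNORD82 and SNORA75; and RPS12, a ribosomal protein gene with SNORD100, SNORD101 and SNORA33. These 3 hosts were chosen by name, and other hosts of both classes were not searched for. In EIF4A2, SNORD2 held 69.6, 154 and 33.1 times the mean reads per 100 nt of its 3 box H/ACA snoRNAs in libraries 1, 2 and 3 (70.7-fold by the mean log2 ratio of 6.14 ± 1.11, SD, n = 3). The box C/D to box H/ACA ratio was 4.28, 8.18 and 4.19 in RPL21, 10.7, 7.74 and 7.12 in NCL, and 35.3, 72.3 and 44.8 in RPS12.

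The EIF4A2 ratio was the higher one in 3 of 3 libraries against RPL21 (log2 difference 3.75 ± 0.67, SD, n = 3) and against NCL (3.08 ± 1.10). Against RPS12 it was higher in libraries 1 and 2 and lower in library 3 (0.54 ± 0.85), a difference smaller than its spread. The exact sign-flip permutation test gave p = 0.25 for RPL21 and NCL, the smallest possible, and 0.5 for RPS12 (adjusted over these 3 comparisons, 0.375, 0.375 and 0.5). Without library 2 the difference to NCL was 2.46. In RPS12, SNORD100 with 680, 406 and 503 reads was close to SNORD2 in level, while SNORA33 had 17, 5 and 10 reads and SNORD101 6, 7 and 9. The mean with SNORD101 lowers the box C/D side of RPS12, whereas that of EIF4A2 is SNORD2 alone. A ratio with SNORD100 alone was not compared.

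**Figure D2:**
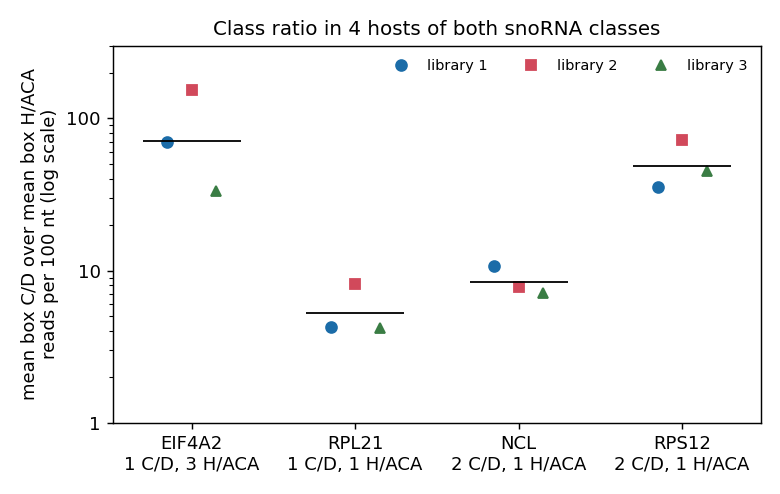
Ratio of mean box C/D to mean box H/ACA reads per 100 nt (log axis) for the snoRNAs of EIF4A2, RPL21, NCL and RPS12 in each library, with the mean over libraries on the log scale as a line. The EIF4A2 values (69.6, 154 and 33.1) lie above all values of RPL21 and NCL and overlap those of RPS12.

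The snoRNAs whose shares over the 3 libraries came closest to that of SNORD2 were all of box C/D. By the mean absolute difference in log2 share over 3 libraries, SNORD44 was nearest (0.0896), with 3.09%, 5.65% and 2.46% of the counts, followed by SNORD100 (0.272) and SNORD78 (0.425). SNORD44, like SNORD2, was highest in library 2 and lowest in library 3. Nearest to SNORA81 were SNORD61 (0.180), SNORA66 (0.184) and SNORD119 (0.204), so both classes stood beside it. SNORA63 and SNORA4 had fewer than 10 reads in at least 1 library and were not compared in this way. These distances use the share only, without length.

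Most SNORD2 reads were nearly complete snoRNAs. Reads spanning at least 90% of its 70 nt were 551 of 663, 430 of 671 and 333 of 522 (83.1%, 64.1% and 63.8%; mean 70.3% ± 11.1, SD, n = 3), against 64.9% ± 6.82 over all other box C/D snoRNAs. The others held 69.8%, 57.1% and 67.8% in libraries 1, 2 and 3. SNORD2 was above them in libraries 1 and 2 and below them in library 3. SNORD2 reads of 66 nt were its commonest in all libraries, numbering 376, 277 and 177. Library 1 had the largest share of nearly complete SNORD2 reads, and libraries 2 and 3 had almost the same one.

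The long SNORD2 reads shared 1 start but had several ends. Of the reads over 40 nt, 564 of 609, 433 of 470 and 338 of 407 started at position 3 (89.3% ± 5.39, SD, n = 3), 6 bases before the C box core. At the other side 437, 320 and 217 ended at position 68 (64.4% ± 9.76), while 62, 65 and 92 ended at 65 (15.5% ± 6.39), 2 bases after the last CTGA. Reads starting at position 1 or 2 numbered 1, 2 and 2, so the first annotated bases were almost never seen. The commonest read, from 3 to 68, made up 415, 301 and 200 reads, and the next, from 3 to 65, 55, 57 and 59.

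SNORD2 had a second, much shorter group of reads. Reads of up to 40 nt, called short here, were 54, 201 and 115 (8.14%, 29.96% and 22.03%; mean 20.04% ± 11.04, SD, n = 3), against 15.9% ± 7.82 in the other box C/D snoRNAs. In libraries 1, 2 and 3 the others held 11.6%, 24.9% and 11.1%. SNORD2 was thus below them in library 1 and above them in libraries 2 and 3. Library 2 was highest for SNORD2 and for the others. Over all snoRNAs it also had the most short reads, 27.3% of its counts against 11.9% and 12.1% in libraries 1 and 3. Whether this difference in read length moved the SNORD2 value was not tested.

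In libraries 2 and 3 most of these short reads were versions of 1 fragment of the 3′ part, which library 1 also held. The leading short read ran from position 36 to 65 (chr3:186784831-186784860, the capitals in the SNORD2 sequence) and spanned 30 nt, with 12, 104 and 44 reads. With the libraries pooled it was the third commonest SNORD2 read of any length, and in library 2 it was second. The next short reads differed from it by a base or so at either end: 37 to 65 had 1, 16 and 9 reads, 36 to 64 had 1, 16 and 8, and 37 to 64 had 2, 11 and 6. Taken as a group, short reads starting at 36 or 37 were 18, 169 and 84, which is 33.3%, 84.1% and 73.04% of the short SNORD2 reads and 2.71%, 25.2% and 16.1% of all its reads (mean 14.7% ± 11.3, SD, n = 3). Library 1 had far fewer of them than the other 2, and without library 2 the mean was 9.40% of all reads.

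**Figure D3:**
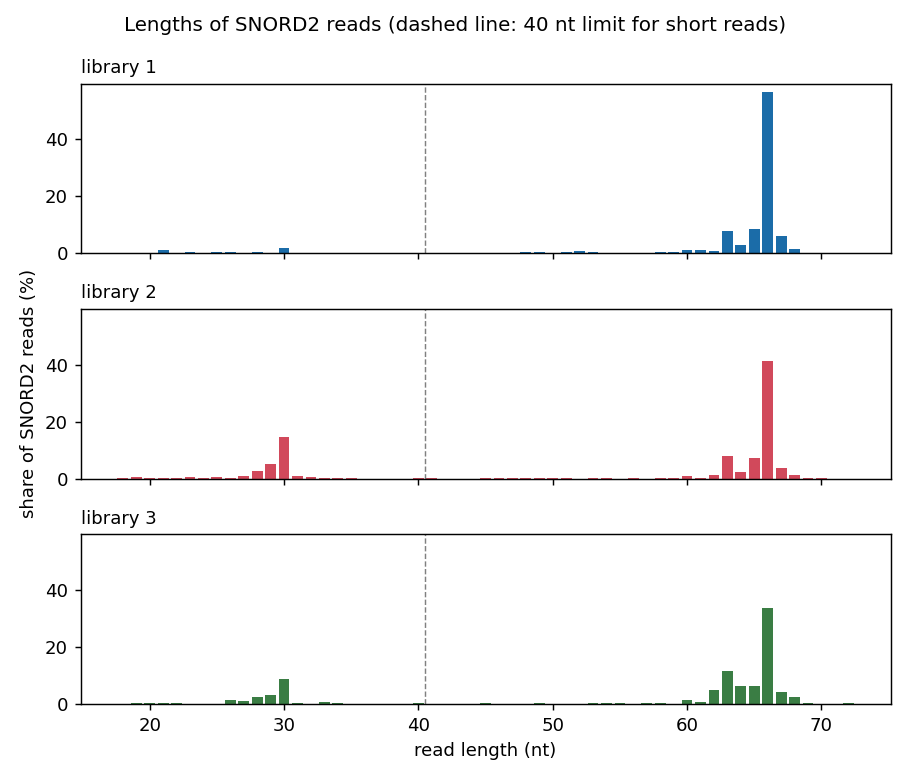
Lengths of SNORD2 reads (nt) as a share of its reads (percent) in each library, with a dashed line at the 40 nt limit for short reads. The main peak is at 66 nt in all libraries, and a second one at 30 nt holds 12, 99 and 46 reads.

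The fragment begins exactly at the second CTGA of SNORD2 (36 to 39), with 1 base between it and the first CTGA (31 to 34), and it carries the last CTGA (60 to 63) near its own 3′ end. Its end was not that of the long reads. Of the short reads starting at 36 or 37, 13 of 18, 120 of 169 and 53 of 84 ended at position 65 (68.8% ± 4.96, SD, n = 3), and 0, 3 and 2 ended at 68, where most long reads ended. The matching 5′ piece was rarer: short reads that started at 1 to 5 and ended at 30 to 40 numbered 7, 3 and 6. Those that started at 1 to 5 with any end numbered 15, 7 and 16. In library 1 these were close to the 18 short reads that started at 36 or 37.

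Short SNORD2 reads were not mainly of miRNA size. Reads of 20 to 24 nt were 16, 13 and 8 (1.96% ± 0.44 of its reads, SD, n = 3), against 3.12% ± 1.14 in the other box C/D snoRNAs. In library 1 SNORD2 and the others were close, at 2.41% and 2.32%. The SNORD2 reads of this size were spread over several places, the commonest being 45 to 65 with 7, 0 and 0 reads and 48 to 68 with 1, 2 and 1. In contrast, reads of 28 to 31 nt were 18, 158 and 78, and 16, 154 and 75 of them started at 36 or 37.

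Across all snoRNAs, short reads were compared with longer reads by edgeR's quasi-likelihood test with the library as a block, on the 125 snoRNAs that no library held fewer than 10 counts of. Of these, 42.4% were called at a Benjamini-Hochberg adjusted p under 0.05, 24% with more short reads than the typical snoRNA and 18.4% with fewer (30 and 23 snoRNAs). SNORD2 was not among them, with a log2 ratio of 0.38 ± 0.36 (SE, n = 3) and an edgeR adjusted p of 0.429, and neither was SNORA81, with -0.64 ± 0.62 and an edgeR adjusted p of 0.429. SNORA63 and SNORA4 had fewer than 10 counts in a library and were left out here. With a minimum of 10 counts over the 3 libraries together they were tested and not called (SNORA63 1.52 ± 1.09, edgeR adjusted p = 0.319; SNORA4 -1.11 ± 0.81, edgeR adjusted p = 0.321). Without library 2 and without library 3, 35 of 158 and 26 of 127 tested snoRNAs were called in place of 53 of 125. SNORD2 and SNORA81 were again not among them. The ratio is relative to the other snoRNAs: with 1 library size for both kinds of read the median of all 125 was -2.58, 4 had more and 97 fewer short reads, and SNORD2 (-2.15, edgeR adjusted p = 0.00468) and SNORA81 (-3.25, edgeR adjusted p = 0.000105) were then among the 97.

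The short SNORD2 reads lay mostly in its 3′ part, which a test over reads of every length did not show. Each read was assigned to the 5′ or the 3′ part by its midpoint. SNORD2 had 68, 219 and 134 reads centred 3′ of the middle and 179, 149 and 184 centred 5′ of it. The edgeR log2 ratio of 3′ to 5′ reads was -0.42 ± 0.42 (SE, n = 3, adjusted p = 0.396), with the 3′ side ahead in library 2 alone. Of the 108 snoRNAs tested 66.7% were called, 26.9% with more 3′ and 39.8% with more 5′ reads (29 and 43 snoRNAs). With a separate library size for each side, under which the median of all was 0.21 in place of -0.75, these were 45 and 32, and the SNORD2 ratio was 0.52. Without library 1 it was 0.051, and under neither setting was SNORD2 called. Reads from 3 to 68 centre exactly on the middle and are in neither part, and those from 3 to 65 count as 5′.

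When reads that span more than 50% of their snoRNA were left out, SNORD2 had 35, 190 and 98 reads on the 3′ side and 13, 9 and 12 on the 5′ side. Its log2 ratio was then 2.95 ± 0.47 (SE, n = 3, edgeR adjusted p = 1.74e-07), higher in 3 of 3 libraries. Of the 44 snoRNAs tested in this way 45.5% were called, 20.5% with more 3′ and 25% with more 5′ reads. SNORD2 had the fifth highest ratio, and the median over the 38 box C/D snoRNAs among them was -0.61. The SNORD2 call held without each library in turn, with a log2 ratio of 2.24 and an edgeR adjusted p of 0.0424 without library 2. Without library 1, 13 of 58 tested snoRNAs were called in place of 20 of 44. When the reads of the 3 libraries were pooled, short reads from the 3′ part (start at 40% to 65% of the length, end at 85% or later) were 81.9% of the short SNORD2 reads. That was rank 1 of 72 box C/D snoRNAs with at least 30 short reads, closely followed by SNORD77 (78.0%) and SNORD78 (73.9%), and the median of the others was 19.2%. By the share of short reads in the leading fragment (43.2%) SNORD2 ranked 6, and by the share of short reads among all reads (19.9%) it ranked 29. These measures were chosen after the fragment had been seen, with a start window that fits it, and are a description. SNORD14A, whose leading short read starts later, at 68, has a value of 0 in that window.

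**Figure D4:**
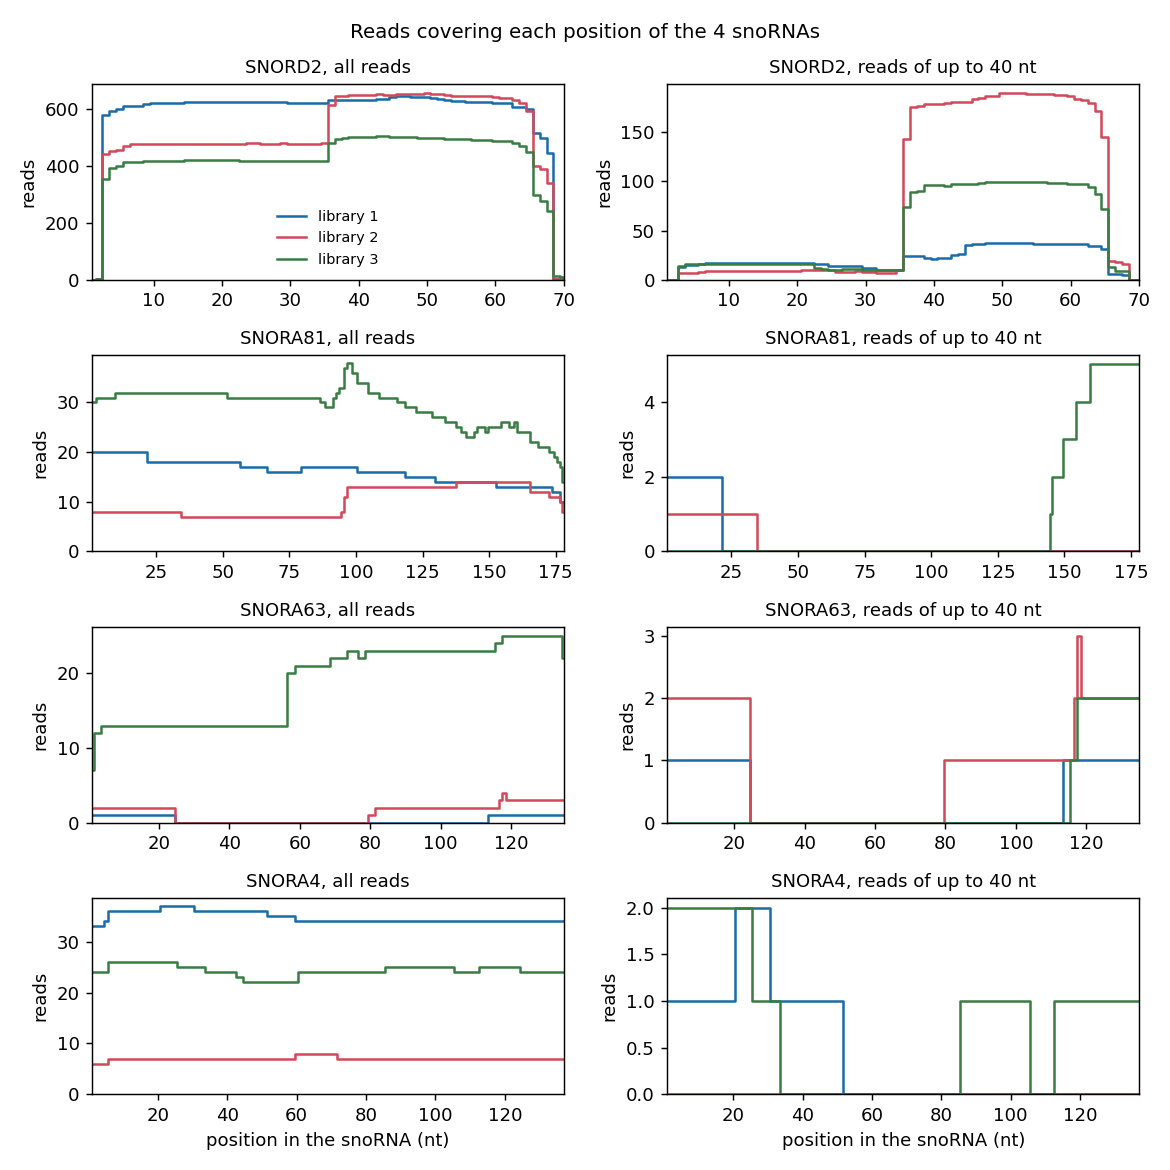
Number of reads (vertical axis) that cover each position (nt, horizontal axis) of SNORD2, SNORA81, SNORA63 and SNORA4 in each library, for all reads on the left and for reads of up to 40 nt on the right. In SNORD2 the short reads lie mostly between positions 36 and 65, in SNORA81 and SNORA63 coverage steps up near positions 96 and 57 in library 3, and SNORA4 is covered almost evenly.

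The 3 box H/ACA snoRNAs differed in how complete their reads were. SNORA4 reads were mostly full length: 34 of 37, 6 of 8 and 22 of 30 spanned at least 90% of it (80.1% ± 10.3, SD, n = 3), against 50.3% ± 16.4 over the other box H/ACA snoRNAs. With the libraries pooled SNORA4 (82.7%) ranked 5 of the 36 box H/ACA snoRNAs with at least 30 reads. The median of the 33 outside EIF4A2 was 64.9%. The read from position 1 to 137 alone had 31, 6 and 19 reads. In SNORA81 such reads were 11 of 22, 7 of 15 and 9 of 47 (38.6% ± 16.9), and in SNORA63 0 of 2, 0 of 6 and 12 of 26. SNORA4 was thus the most complete of the 3 in every library, although 8 reads in library 2 give a wide interval of 34.9% to 96.8%. Many of these reads differed in length from the stretch they were placed on, which reads with inserted or missing bases do: 20, 2 and 14 in SNORA4, 11, 5 and 21 in SNORA81, and 0, 1 and 6 in SNORA63. In SNORD2 they were a smaller share, 16.0%, 13.6% and 18.2%, against 54.1%, 25% and 46.7% in SNORA4.

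Part of the SNORA81 and SNORA63 reads covered the 3′ part alone. They are called 3′ hairpin reads here by position only, since no structure was predicted. A 3′ hairpin read was taken as one that starts at 35% to 65% of the length and ends within 5 nt of the end, a definition made after the reads had been seen. SNORA81 had 1, 6 and 9 such reads (4.55%, 40% and 19.1% of its reads; mean 21.2% ± 17.8, SD, n = 3). SNORA63 had 0, 1 and 11 (0 of 2, 1 of 6 and 11 of 26), with a mean of 19.7% ± 21.3, and SNORA4 had 0, 1 and 2, with a mean of 6.39% ± 6.25. For all other box H/ACA snoRNAs the share was 8.90% ± 7.86, highest in library 2 with 17.96%. Without SNORA19 it was 6.53% ± 4.23, with 11.4% in library 2.

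With the libraries pooled, 3′ hairpin reads were 12 of 34 in SNORA63 (35.3%, exact 95% interval 19.7% to 53.5%), 16 of 84 in SNORA81 (19.0%, 11.3% to 29.1%) and 3 of 75 in SNORA4 (4%, 0.833% to 11.2%). These were ranks 2, 5 and 16 of the 36 box H/ACA snoRNAs with at least 30 reads, and the median of the 33 others was 2.70%, with 10 at 0. SNORA81 also ranked 4 for reads of the 5′ hairpin, which start within the first 6 positions and end at 35% to 65% of the length. These were 2, 0 and 11 of its reads (15.5% with the libraries pooled, against a median of 4.46% in the 33 others), more than its 3′ hairpin reads in libraries 1 and 3 and fewer in library 2. The SNORA63 value came almost wholly from library 3, which gave 11 of its 12 hairpin reads and 26 of its 34 reads. The mean share without library 2 was 11.8% for SNORA81 and 3.33% for SNORA4, and without library 3 it was 8.33% for SNORA63.

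**Figure D5:**
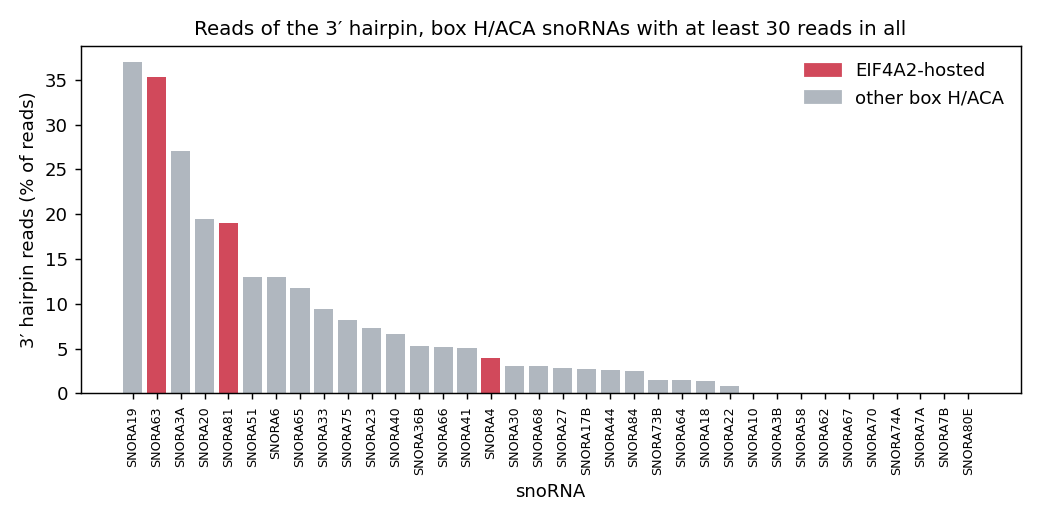
Share of reads that are 3′ hairpin reads (percent of the reads of each snoRNA, 3 libraries pooled) for the 36 box H/ACA snoRNAs with at least 30 reads, in falling order, with SNORA63, SNORA81 and SNORA4 in red. SNORA63 (35.3%) and SNORA81 (19.0%) stand at ranks 2 and 5, and SNORA4 (4%) at rank 16.

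The 3′ hairpin reads of SNORA81 began at a narrow place in libraries 2 and 3. Of its 1, 6 and 9 such reads, 0, 6 and 9 started at 92 to 97, and the single commonest of them, from 96 to 178 (83 nt, the capitals in its sequence), had 0, 3 and 4. That start lies among the H box matches, 2 bases before the last one at 98 to 103. From the 5′ end, 9, 1 and 22 reads started at position 1 and ended before 90% of the length. Reads of the complete 1 to 178 numbered 8, 1 and 0. By midpoint SNORA81 had 2, 7 and 16 reads on the 3′ side and 12, 7 and 31 on the 5′ side, equal in library 2 and fewer 3′ in the others. This was not called by edgeR (log2 ratio -1.03 ± 0.54, SE, n = 3, adjusted p = 0.135), except without library 2 (-1.34, adjusted p = 0.0455).

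In SNORA63 the commonest hairpin read ran from 57 to 135 (79 nt, the capitals in its sequence) with 0, 0 and 5 reads, against 0, 0 and 6 for the complete 1 to 135 and 0, 0 and 5 for 2 to 135. Its start lies 3 bases before the first H box match of the middle window, at 60. In SNORA4 the read from 61 to 137 had 0, 0 and 2 reads. The 5′ end of SNORA4 was mostly position 1 (33 of 37, 6 of 8 and 24 of 30 reads), and 2, 1 and 2 reads started at position 6.

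SNORA81 overlaps an annotated miRNA gene, MIR1248, on the same strand, so its first bases are those of miR-1248. The mature miRNA is identical to positions 1 to 27 of SNORA81 (chr3:186786675-186786701). It is printed here as RNA from RefSeq (GRCh38), with the seed, bases 2 to 8, in capitals.
hsa-miR-1248: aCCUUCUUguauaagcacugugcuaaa
Few reads placed on SNORA81 matched it, and individual reads assigned to miRNAs were not examined. Reads lying wholly within positions 1 to 27 of SNORA81 were 2, 0 and 0, and both ran from 1 to 21. In library 1, the count table of miRNAs and snoRNAs that the authors deposited listed SNORD2 with 663 counts and SNORA81 with 22, equal to the sums over their reads. It did not list SNORA63 and SNORA4, which had 2 and 37 reads in that library, and had 0 rows named miR-1248, so a missing row there is no count of 0.

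Short reads of the 3 box H/ACA snoRNAs were too few for a pattern. SNORA81 had 2, 1 and 5 reads of up to 40 nt, SNORA63 2, 5 and 2, and SNORA4 2, 0 and 4, against a share of 23.1% ± 15.6 in the other box H/ACA snoRNAs (SD, n = 3). Both reads of SNORA63 in library 1 and 5 of its 6 reads in library 2 were short, whereas in library 3 they were 2 of 26. At 20 to 24 nt SNORA81 had 2, 0 and 1 reads, SNORA63 2, 2 and 1, and SNORA4 0, 0 and 1. The single sequence of that size seen at least 3 times was SNORA63 from 1 to 24, with 1, 2 and 0 reads.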

How the data were processed

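Small RNA of HEK293 cells was sequenced in 3 libraries after phenol and chloroform extraction, bead purification and library preparation for Ion sequencing, per the labels' protocols. The authors deposited raw counts per distinct read with the snoRNA entry, the read length and its first and last position, per the file headers. Lengths and positions, in nt, were used as deposited. The submitters' processing notes name GRCh38.p10 as the genome build. For the aligner, trimming and filters, nothing is stated in the labels or headers used. Of 260 entries, 252 were named through RefSeq symbols and synonyms. Reads whose length differed from their span were 24.2%, 17.2% and 24.3% of the counts, and of 9, 7 and 14 reads on the opposite strand 0 fell on the 4 snoRNAs. A count of 0 allows a share of up to 0.0150%, 0.0251% and 0.0157% in libraries 1, 2 and 3 (3 counts). A further deposited table of counts had 2 per-sample columns that matched no sample and were not used.

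Shares have exact (Clopper-Pearson) 95% intervals. edgeR 4.0.16 (R 4.3.3, TMM factors for short against longer reads, 1 library size per library for 3′ against 5′ reads, Benjamini-Hochberg at 0.05) was run on all snoRNAs with a minimum of 10 counts per library and tested on simulated data. DESeq2 1.42.0, other filters, size limits and scalings, and leaving out each library were alternatives. Pieces and ratios were computed with Python 3.11.15, pandas 2.3.3, NumPy 2.4.6 and SciPy 1.17.1, and drawn with matplotlib 3.10.9. Named were the 4 snoRNAs, the 3 of closest share for each that passed the same minimum, the snoRNAs of RPL21, NCL and RPS12, and the 3 commonest reads, the 3 commonest short reads and all reads of 20 to 24 nt seen at least 3 times. Other reads were chosen after their values were seen. The snoRNAs and lists were chosen with earlier results of these data known.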

Additional observations from a re-analysis of the deposited data

How the results depend on the processing

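In all, 217 values were computed under other settings. Outside the fits without 1 library, 103 kept their direction and their side of the threshold or moved by less than the spread between libraries, 14 moved by more, 3 reversed, 2 passed a threshold or rose in count, and 2 counts of calls fell. Without 1 library, 89 were unchanged in this sense, 1 reversed, 1 passed a threshold and 2 fell in count. The ratios of SNORD2 to SNORA81, SNORA63, SNORA4 and their sum kept their direction under every setting run. The ratio to SNORA4 among reads of up to 40 nt and the ratio to SNORA63 among longer reads were not run, since 1 library was at 0 in each.

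Set against the counts of their own class, SNORA81, SNORA63 and SNORA4 took 2.30%, 0.885% and 1.97%, and with each distinct read counted once 0.337%, 0.131% and 0.209% of all snoRNA reads. At 18 to 25 nt in place of 20 to 24 nt the SNORD2 share was 2.89% and that of SNORA4 3.33%. With each distinct read counted once, 5.04% of SNORD2 reads had 20 to 24 nt and 48.1% spanned at least 90%. Only 1.46% of SNORD2 reads spanned at least 95% of the annotated 70 nt, since its commonest read is 66 nt long. The SNORA81 share of short reads was 5.16% with a limit of 30 nt, 11.02% with 50 nt and 14.5% without gapped reads.

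With 1 library size for short and longer reads, 101 snoRNAs were called in place of 53, and SNORD2 (-2.15) and SNORA81 (-3.25) were among them. With a limit of 30 nt 34 of 125 were called. Without library 1, 2 and 3 in turn, 40 of 129, 35 of 158 and 26 of 127 were called. DESeq2 gave no adjusted p for SNORA81. For 3′ against 5′ reads, the limit on span left 20 calls of 44 tested (45.5%) in place of 72 of 108 (66.7%), for which the cause was not tested, and the SNORD2 ratio turned to 2.95. With a separate library size for each side it was 0.52. With a minimum of 10 placed counts over the 3 libraries together SNORA63 (2.16, edgeR adjusted p = 0.117) and SNORA4 (0.13, edgeR adjusted p = 0.858) were tested and not called. Without 1 library the SNORD2 ratio over reads of every length ranged from -0.91 to 0.051, and that of SNORA81 from -1.34 to -0.56. In edgeR the library was already a block, and the numbers pair no groups. No paired analysis was possible because the series has 1 group. SNORA63 with 34 reads and SNORA4 with 75 are limited by depth.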
